A study of Drosophila melanogaster with 9 samples.

Results

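Cytochrome P450 genes were followed in RNA of whole adult fruit flies (Drosophila melanogaster, Canton S). They were taken as every gene in the deposited tables whose symbol begins with Cyp and a digit directly after it. That rule gave 82 of 13140 genes. One of them, Cyp1, is a cyclophilin, a protein-folding enzyme that only shares the prefix, so 81 genes are P450 genes and are described here. By the family number in their names, 40 belong to the CYP3 clan, 29 to the CYP4 clan, 8 to the mitochondrial clan and 4 to the CYP2 clan. Pseudogenes are included (Cyp6a15Psi, Cyp6a16Psi, Cyp6t2Psi and Cyp9f3Psi). All 81 passed the filter on low counts that left 12913 genes.

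The flies formed 3 groups with 3 libraries each. GP/P flies descend from an obese grandfather through a heterozygous father, and GP/M flies from an obese grandfather through a heterozygous mother. WT flies have neither an obese grandparent nor a heterozygous parent. The series title names AKHR mutants, flies without the receptor of the fat-mobilising adipokinetic hormone, as the obese ancestors. All flies sequenced, including both descendant groups, were wild-type themselves, and all were 10 to 11 days old. The sources used here give neither their sex nor how many flies made up a library. CPM are counts scaled to the library total after TMM normalisation between libraries. Summed seminal fluid genes of the male accessory gland were at 2176 to 2573 CPM over the libraries. The summed yolk and eggshell genes were at 17.7 to 27.8 CPM. The design text ties a set of samples to each experimental replicate, so the 3 libraries of a replicate number, 1 from each group, are called a set. Library totals were 21777434 to 28166388 counts, of which P450 genes took 2.70% to 3.00%.

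P450 enzymes are haem proteins that insert an oxygen atom into lipids, hormones, plant toxins and insecticides. The microsomal enzymes receive electrons from the reductase Cpr, sometimes by way of cytochrome b5, and the mitochondrial ones from ferredoxin and its reductase. In flies, many members of the CYP3 clan act in the fat body, the midgut and the Malpighian tubules, where they clear foreign compounds. Others have fixed tasks, such as making the waxy hydrocarbons of the cuticle in oenocytes or inactivating the moulting hormone. In whole-fly RNA, fewer cells of a type and less RNA per cell cannot be told apart.

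Cyp4g1, the oenocyte enzyme that completes the synthesis of cuticular hydrocarbons, stood far above all other members. It had the highest level of any tested gene, both by CPM and by CPM per kilobase of exon, and held 76.3% to 79.5% of the summed P450 CPM. It was at 23014, 21323 and 21648 CPM in the GP/P libraries, 20956, 20791 and 20812 CPM in GP/M and 23728, 21917 and 21237 CPM in WT. Every GP/M library was thus below every WT and every GP/P library, while GP/P and WT overlapped. Corrected for exon length, Cyp4g1 averaged 9528 CPM per kilobase, and the next member, Cyp6g1, 412 CPM per kilobase. Cyp6g1 is the enzyme whose overproduction gives resistance to DDT and neonicotinoids.

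After Cyp6g1 came Cyp313a1 at 352 CPM per kilobase and Cyp6d5, which is inducible by phenobarbital, at 329.7 CPM per kilobase. They were followed by Cyp28d1, known for nicotine tolerance, at 218 CPM per kilobase. Cyp9b2 (175 CPM per kilobase), the mitochondrial Cyp12a4 (163), whose overexpression gives lufenuron resistance, and Cyp6a23 (153) completed the 8 highest. Ranking by plain CPM gave the same 8 genes. Most neighbours in this order overlapped over the 9 libraries. Cyp6g1 ranged over 363 to 472 CPM per kilobase, Cyp313a1 over 320.2 to 391 and Cyp6d5 over 310.9 to 382. Cyp28d1, at 205 to 229 CPM per kilobase, lay below these 3 in every library but overlapped Cyp9b2, at 160.1 to 218. Cyp12a4, at 151 to 179 CPM per kilobase, and Cyp6a23, at 125 to 202, overlapped Cyp9b2 and each other.

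At the other end, 5 members averaged under 1 CPM. Cyp6a19 had 5 to 16 counts per library and Cyp303a1, which is needed for sensory bristles, 6 to 25. For these genes the number of counts limits what could be seen between groups. The median member was at 31.6 CPM and at 17.3 CPM per kilobase, against 25.2 CPM and 12.9 CPM per kilobase over all tested genes. Across the 9 libraries, the median member had a coefficient of variation of 7.74%, and the median tested gene 6.51%. All 4 pseudogenes had counts, the highest being Cyp9f3Psi at 4.87 CPM per kilobase.

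**Figure D1:**
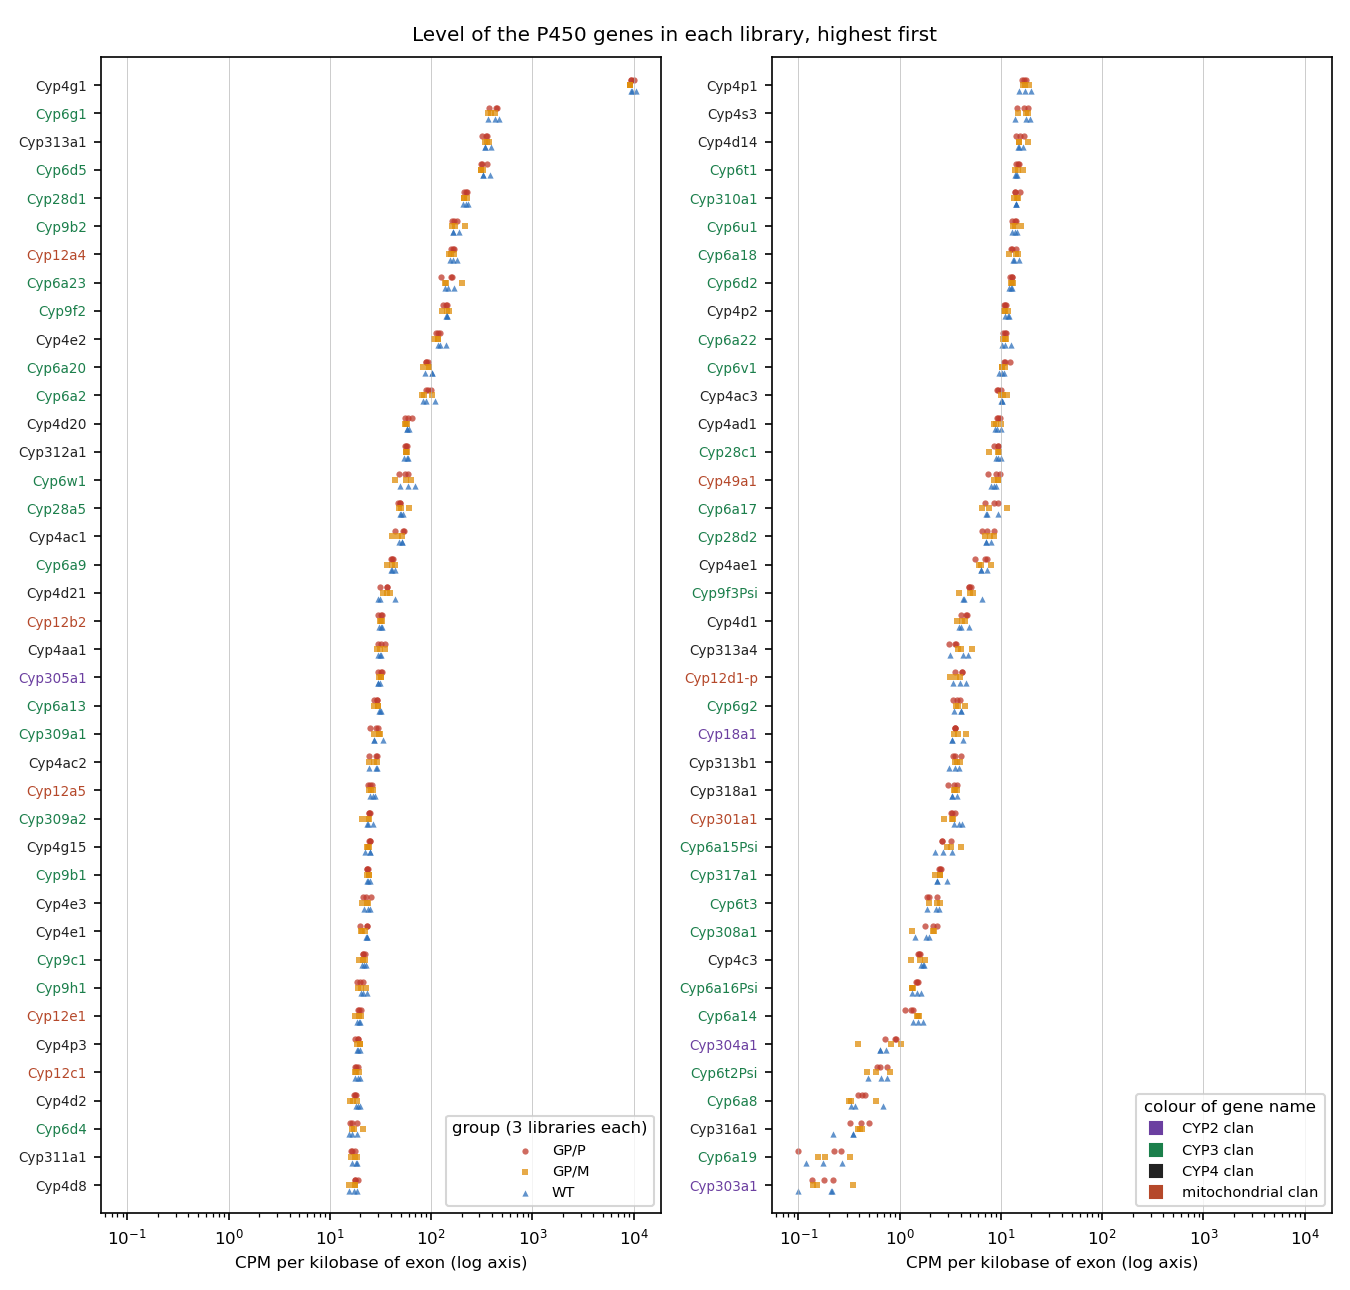
CPM per kilobase of exon (log axis) of the 80 P450 genes with an exon length, highest first down the left and then the right panel, with 1 point per library: GP/P above GP/M above WT within each row. Cyp4g1 lies apart in the first row of the left panel, at the right end of the axis, and the points of the 3 groups overlap in most rows.

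The first question of the design is whether flies with an obese grandfather differ from WT flies. No P450 gene passed an adjusted p of 0.05 in GP/P against WT by edgeR's quasi-likelihood test, and 0.0% of all tested genes did. DESeq2 called 0 members as well. At an unadjusted p under 0.05 edgeR listed 3 members (3.7%; 2.59% of all genes) and DESeq2 0 members (1.24% of all genes). The median member was at 0.989-fold of WT, and 55 of 81 lay below WT, against 48.2% of all genes. In CPM, 0 members had all GP/P libraries above all WT libraries (4.07% of all genes did) and 3 had them all below (4.41%): Cyp6a14, Cyp6a13 and Cyp4c3, the last named here for this pattern alone.

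Cyp6a14, a low-level member of the CYP3 clan, had the smallest p. It was at 4.004, 3.33 and 3.80 CPM in GP/P and 4.51, 5.06 and 4.05 CPM in WT. All 3 GP/P libraries were below all 3 WT libraries, though by little between the highest GP/P and the lowest WT value. Its level was 0.814-fold of WT (95% interval 0.681 to 0.972; adjusted p = 1.00 by edgeR's quasi-likelihood test).

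Its genomic neighbour Cyp6a13 was at 45.2, 48.2 and 48.2 CPM in GP/P and 51.4, 50.6 and 52.3 CPM in WT, again without overlap. This is 0.918-fold (95% interval 0.846 to 0.996; edgeR adjusted p = 1.00). Cyp6v1 was the only one of the 4 with a higher GP/P mean, at 33.6, 32.2 and 37.2 CPM in GP/P and 29.3, 30.7 and 32.8 CPM in WT. The GP/P library was above the WT library in all 3 sets, although the groups overlapped between sets. The fold was 1.11 (95% interval 1.00 to 1.23; edgeR adjusted p = 1.00), and the log2 fold change fell to 0.09 without the GP/P library of set 3, against 0.15 with it. Cyp301a1, a mitochondrial-clan enzyme of cuticle formation, was at 6.39, 6.27 and 6.88 CPM in GP/P and 7.44, 6.65 and 7.96 CPM in WT, 0.888-fold (edgeR adjusted p = 1.00). The groups overlapped for Cyp301a1. Its exons overlap those of the adenylate kinase gene Ak6, which was at a log2 fold change of -0.30 in GP/P against WT and not called.

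In GP/M against WT, 0 members were called by edgeR's quasi-likelihood test and by DESeq2, beside 0.0% of all genes. At an unadjusted p under 0.05 edgeR listed 1 member (1.23%; 1.53% of all genes) and DESeq2 0 members (0.594% of all genes). The median member was at 0.989-fold of WT with 46 of 81 below, against 48.3% of all genes. All GP/M libraries lay above all WT libraries for 1 member (2.37% of all genes), the low-count Cyp316a1, and below them for 4 members (2.53%), Cyp301a1, Cyp4e1, Cyp6a13 and Cyp4g1. Cyp316a1 and Cyp4e1 are named here for this pattern alone. The exons of Cyp4e1 overlap those of Mal-A1, which averaged 2857 CPM over the 9 libraries, so the pair may share reads.

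Cyp301a1, described above for GP/P against WT, had the smallest p of the members in GP/M against WT. It was at 5.32, 6.51 and 6.44 CPM in GP/M, with every library below the WT values above. This is 0.828-fold of WT (95% interval 0.707 to 0.970; edgeR adjusted p = 1.00). Both comparisons use the same WT libraries. Reads of Cyp301a1 and of Ak6 may not be separable in either comparison, since no source used here states how strand was handled. In GP/M against WT, Ak6 was at a log2 fold change of -0.05 and not called.

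Cyp4e2 was at 222, 204 and 223 CPM in GP/M and 230.4, 219 and 268 CPM in WT, 0.905-fold (edgeR adjusted p = 1.00). The groups overlapped, the WT library of set 3 was the highest, and without it the log2 fold change was -0.06 in place of -0.14. Cyp4d2 was at 46.2, 39.4 and 41.6 CPM in GP/M and 46.4, 44.3 and 48.5 CPM in WT, 0.915-fold (edgeR adjusted p = 1.00). The groups overlapped here too, and the log2 fold change of -0.13 was -0.19 without the GP/M library of set 1 and -0.08 without that of set 2. The pseudogene Cyp6a15Psi, at 3.38, 4.22 and 3.12 CPM in GP/M and 2.38, 2.80 and 3.45 CPM in WT, had an uneven pattern with a WT library above 2 of the GP/M libraries. The log2 fold change of 0.32 (edgeR adjusted p = 1.00) became 0.19 without the GP/M library of set 2 and 0.20 without the WT library of set 1.

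Cyp4g1 averaged 21995 ± 897 CPM in GP/P, 20853 ± 90.0 CPM in GP/M and 22294 ± 1287 CPM in WT (SD, n = 3 each). In GP/M it was at 0.935-fold of WT (95% interval 0.854 to 1.02; edgeR adjusted p = 1.00). The WT library of set 1 held the highest value, and without it the log2 fold change was -0.05 in place of -0.10. In GP/P it was at 0.987-fold of WT (95% interval 0.901 to 1.08), and the sign turned without that WT library (log2 fold change 0.03 in place of -0.02).

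When the set number entered the fit as a block, still no member was called in any of the 3 group comparisons, with a smallest adjusted p among members of 0.644 in GP/P against WT, 0.999 in GP/M against WT and 0.952 in GP/P against GP/M. The number of members at an unadjusted p under 0.05 changed with the block. In GP/M against WT it was 10 (12.3%, of which 9 lower), against 3.5% of all genes and 1.93% of all genes lower. These were Cyp4e2, Cyp6d5, Cyp6w1, Cyp4ac1, Cyp4g1, Cyp301a1, Cyp4d2, Cyp4e1 and Cyp12d1-p below WT and Cyp6d4 above it, with log2 fold changes of -0.28 to -0.09 and 0.12. In GP/P against WT the block gave 6 members (7.41%; 6.85% of all genes), and in GP/P against GP/M 8 (9.88%; 4.58% of all genes). Members at an unadjusted level are not calls.

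The second question is whether the line of descent matters, GP/P against GP/M. Again 0 members were called by edgeR's quasi-likelihood test or by DESeq2, beside 0.0% of all genes. At an unadjusted p under 0.05 edgeR gave 3 members (3.7%; 1.7% of all genes) and DESeq2 gave 1 (0.708% of all genes). All GP/P libraries lay above all GP/M libraries for 3 members (3.68% of all genes), Cyp4g1, Cyp4g15 and Cyp6a16Psi, and below for 2 (3.24%), Cyp6a14 and Cyp313a4. Cyp4g15 and Cyp6a16Psi are named for this pattern alone. Cyp4g1 was at 1.05-fold (95% interval 0.963 to 1.15; edgeR adjusted p = 1.00), with a log2 fold change of 0.08 that was 0.04 without the GP/P library of set 1.

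Cyp6a14 was at 4.004, 3.33 and 3.80 CPM in GP/P and 4.58, 4.48 and 4.41 CPM in GP/M, 0.825-fold (95% interval 0.691 to 0.984; edgeR adjusted p = 1.00). Its GP/M values were close together and its GP/P values all lower. Cyp313a4 was at 5.96, 5.12 and 5.84 CPM in GP/P and 6.21, 6.68 and 8.51 CPM in GP/M, 0.790-fold (edgeR adjusted p = 1.00). The GP/M library of set 3 was its highest, and without it the log2 fold change was -0.19 in place of -0.34. Cyp4ac3 was at 16.1, 14.9 and 14.9 CPM in GP/P and 16.1, 18.4 and 16.8 CPM in GP/M, 0.895-fold (edgeR adjusted p = 1.00), with groups that overlapped. Cyp28a5 was at 86.9, 82.7 and 87.1 CPM in GP/P and 88.1, 85.5 and 108 CPM in GP/M (edgeR adjusted p = 1.00). That difference lay mostly in the GP/M library of set 3: the log2 fold change of -0.13 was -0.02 without it.

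**Figure D2:**
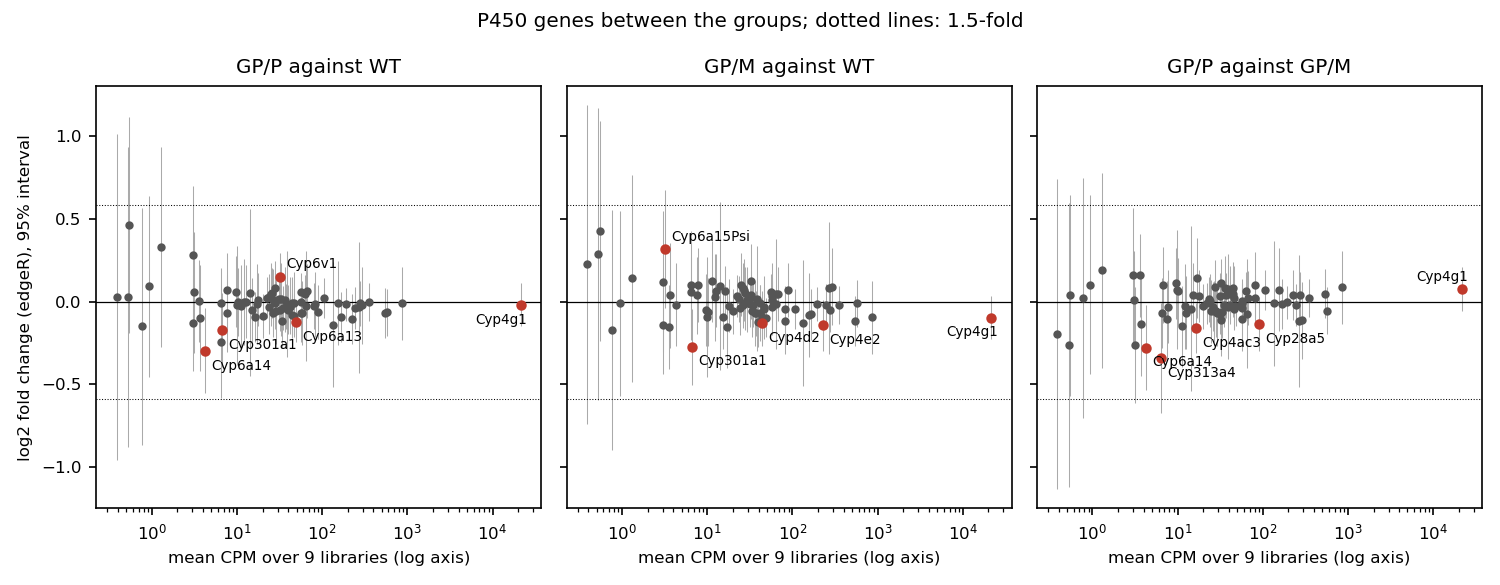
Log2 fold change (vertical axis, with 95% intervals) of the 81 P450 genes against their mean CPM (log axis) in the 3 group comparisons; the 4 members with the smallest p and Cyp4g1 are in red, and dotted lines mark a 1.5-fold difference. Most points lie close to 0, and the wide intervals belong to the members with the fewest counts.

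The 95% intervals of the fit without the sets lay within 1.5-fold on both sides for 74 of 81 members in GP/P against WT, 74 in GP/M against WT and 73 in GP/P against GP/M. They lay within 1.25-fold for 62 members in GP/P against WT, 56 in GP/M against WT and 55 in GP/P against GP/M. With the set as a block, the intervals within 1.25-fold were those of 67 members in GP/P against WT, 66 in GP/M against WT and 66 in GP/P against GP/M. Within 1.5-fold they were 73, 74 and 73 members in the same order. The blocked intervals of Cyp4g1 did not include 1 in GP/M against WT, at 0.936-fold (95% interval 0.892 to 0.983; edgeR adjusted p = 0.999), or in GP/P against GP/M, at 1.05-fold (95% interval 1.00 to 1.11; edgeR adjusted p = 0.952). The GP/M library was the lowest of its set in all 3 sets. In counts simulated for GP/P against WT, 100 genes of 12888 were changed at each fold. Of the 1.5-fold changes 85% were called, and of the 1.25-fold changes 41%, beside 11 false calls. No shift shared by a set was simulated. The adjusted p is harder to pass when fewer genes change, so these rates may be too high for the real comparison, where no gene was called. The authors' deposited tables list all 81 members in each group comparison with an adjusted p above 0.99. In the authors' deposited table of GP/M against WT the smallest unadjusted p of a member was 0.0197, for Cyp4e2.

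Members with a known role were looked at together. Of 8 genes linked to insecticides and other foreign compounds (Cyp6g1, Cyp6g2, Cyp6a2, Cyp6a8, Cyp12d1-p, Cyp12a4, Cyp6d5 and Cyp6w1), none was called in a group comparison. Their summed level was 1909.6 to 2099 CPM in GP/P, 1869.7 to 1942 CPM in GP/M and 1923 to 2219 CPM in WT. Cyp18a1, which inactivates the moulting hormone, was at 10.8 ± 0.106 CPM in GP/P, 11.9 ± 1.70 CPM in GP/M and 10.9 ± 1.60 CPM in WT (SD, n = 3 each). Of 3 genes named for behaviour, Cyp6a20 (male aggression), Cyp6a17 (temperature preference) and Cyp4d21 (male courtship), none was called either.

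The same held for the genes that surround the P450 system, with 0 calls in each group comparison by edgeR's quasi-likelihood test. These were 6 genes of electron supply (Cpr, Cyt-b5, Cyt-b5-r, dare, Fdx1 and Fdx2), 7 of haem synthesis, 4 regulators (cnc, Keap1, maf-S and Hr96) and 2 P450 genes of ecdysone synthesis with names outside the symbol rule (sad and shd). The electron supply genes summed to 3020.2 to 3169 CPM in GP/P, 3018 to 3183 CPM in GP/M and 3097 to 3305 CPM in WT.

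Most members varied more between sets than between groups. The set accounted for a median of 47.2% of a member's sum of squares in log2 CPM and the group for 13.3%, against 41.5% and 14.9% over all tested genes. The set share was the larger in 64 of 81 members (71.1% of all genes). Cyp4ac2 and Cyp4s3 had the highest set shares, at 93.5% and 92.6%, while Cyp6a14 had the highest group share, at 64.2%. Any difference between the 3 sets was called for 22 members (27.2%) by edgeR's quasi-likelihood test with group in the fit, against 15.7% of all genes; DESeq2 called 15 members (9.35% of all genes). Over the 3 pairs of sets, 24 members were called at least once and 57 never.

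**Figure D3:**
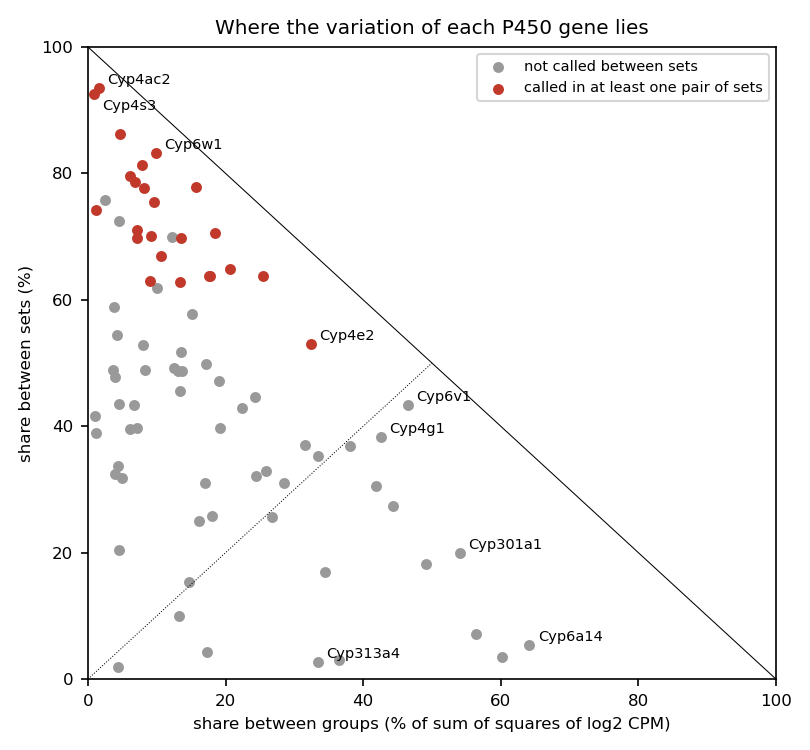
Share of the sum of squares of log2 CPM between sets (vertical axis, %) against that between groups (horizontal axis, %) for the 81 P450 genes; red points were called in at least 1 pair of sets. Cyp4ac2, Cyp4s3 and Cyp6w1 lie at the top left, with most of their variation between sets, and Cyp6a14 and Cyp301a1 at the lower right.

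Markers of the tissues in which P450 genes act differed between the sets as well. The 5 fat body markers summed to 4168 to 4663 CPM in set 3, 3634 to 3756 CPM in set 2 and 3379 to 3484 CPM in set 1, and 4 of the 5 were called in set 3 against set 1 (3 higher and 1 lower). The 7 midgut markers summed to 6311 to 6528 CPM in set 3, 6333 to 6386 CPM in set 2 and 6572 to 6661 CPM in set 1, with 4 called in set 3 against set 1 (1 higher and 3 lower). The 6 Malpighian tubule markers summed to 358 to 371 CPM in set 3, 358 to 386 CPM in set 2 and 383 to 403 CPM in set 1, with 3 called in set 3 against set 1 (1 higher and 2 lower). The 3 oenocyte markers summed to 709 to 759 CPM in set 3, 654 to 741 CPM in set 2 and 654 to 764 CPM in set 1, with 1 called higher in set 3 against set 1. Over all genes, 18.7% were called in set 3 against set 1 (11.7% higher and 6.92% lower). The part of these markers in the P450 differences was not tested.

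Set 3 differed from set 1 in 19 members (23.5%; 18.7% of all genes), with 16 higher in set 3 (19.8%; 11.7% of all genes) and 3 lower (3.7%; 6.92%). Over all 81 members the median was at 1.05-fold, with 55 above set 1, against 0.995-fold for all genes. The widest difference among the calls was that of Cyp6a17, whose product acts in temperature preference, at 16.1, 19.7 and 16.3 CPM in set 3 (GP/P, GP/M and WT in turn) and 14.8, 11.2 and 12.7 CPM in set 1. The sets did not overlap, and the GP/M libraries were both the highest of set 3 and the lowest of set 1. The fold was 1.35 (95% interval 1.15 to 1.58; edgeR adjusted p = 0.0141). The log2 fold change of 0.43 was 0.26 without the GP/M library of set 1, and the call was lost without that library, the GP/M library of set 3 or the WT library of set 1.

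Cyp4s3 was at 42.8, 40.9 and 43.9 CPM in set 3 and 32.6, 34.1 and 31.2 CPM in set 1, 1.30-fold (edgeR adjusted p = 1.38e-04), with every set 3 library well above every set 1 library. Its exons overlap those of rab3-GEF, a regulator of synaptic vesicles, which was also higher in set 3 (30.8 ± 0.877 CPM, against 24.2 ± 2.22 CPM in set 1, SD, n = 3; edgeR adjusted p = 7.97e-04). In set 2 against set 1, where Cyp4s3 was called, rab3-GEF was at a log2 fold change of 0.10 and not called (edgeR adjusted p = 0.499). Without the strand, reads of the pair cannot be told apart. Cyp6g1 was at 919, 815 and 979 CPM in set 3 and 773, 757 and 753 CPM in set 1, 1.19-fold (edgeR adjusted p = 0.00127). The WT library was the highest of set 3, and all 3 exceeded set 1. 

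Cyp6d4 was at 34.6, 40.2 and 34.8 CPM in set 3 and 29.8, 31.2 and 29.2 CPM in set 1, 1.21-fold (edgeR adjusted p = 0.00118). Cyp9b2 was at 298, 364 and 312.8 CPM in set 3 and 283, 267 and 272 CPM in set 1, 1.18-fold (edgeR adjusted p = 0.0138). In both genes the sets did not overlap and the GP/M library of set 3 was the highest. Without that library the log2 fold change of Cyp9b2 was 0.16 in place of 0.24. The mitochondrial Cyp49a1 was at 27.6, 26.6 and 25.1 CPM in set 3 and 21.0, 24.2 and 22.5 CPM in set 1, 1.17-fold (edgeR adjusted p = 0.0104), again without overlap.

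The 3 members that were lower in set 3 were Cyp28d2, Cyp6a2 and Cyp6w1, of which the last 2 belong to the foreign-compound genes. Cyp6a2, overproduced in some DDT-resistant strains, was at 156, 142 and 140.0 CPM in set 3 and 167, 170.5 and 184 CPM in set 1, 0.840-fold without overlap (edgeR adjusted p = 0.00127). Cyp28d2 was at 10.9, 11.7 and 12.01 CPM in set 3 and 14.3, 14.2 and 13.2 CPM in set 1, 0.828-fold (edgeR adjusted p = 0.0128). Cyp6w1 was at 0.897-fold (edgeR adjusted p = 0.0193), with sets that overlapped. The others that rose, from 1.09-fold to 1.17-fold, were Cyp6a18, Cyp4ac2, Cyp4ac1, Cyp4d8, Cyp6a20, Cyp6d5, Cyp4aa1, Cyp12e1, Cyp12a4 and Cyp9f2.

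Some of these calls depended on single libraries. Cyp4s3, Cyp6d4, Cyp6g1, Cyp6a2, Cyp6a18 and Cyp4ac2 remained called whichever of the 9 libraries was left out. The count for set 3 against set 1 was 12 to 19 over the 9 omissions and lowest without the GP/M library of set 1. Cyp49a1 was not called without the GP/P library of set 1 or of set 3, Cyp28d2 without either of these or the GP/M library of set 3, Cyp9b2 without the WT library of set 1, and Cyp6w1 without the GP/P library of set 3, the GP/M library of set 1 or the WT library of set 1 or 3. Cyp6d5 was not called without the WT library of set 3, Cyp4ac1 and Cyp6a20 without the GP/M library of set 1, and Cyp12e1 was lost whichever of the 9 was left out. Cyp12a4 and Cyp4d8 were lost without the GP/M or WT library of set 1 or 3, Cyp9f2 without the GP/P or GP/M library of set 1 or 3, and Cyp4aa1 without the GP/P or GP/M library of set 3 or the GP/M or WT library of set 1. DESeq2 called 13 members (16.0%; 10.5% of all genes). It did not call Cyp49a1, Cyp4d8, Cyp4aa1 or Cyp12e1, and gave no adjusted p for Cyp28d2 and Cyp6a17.

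**Figure D4:**
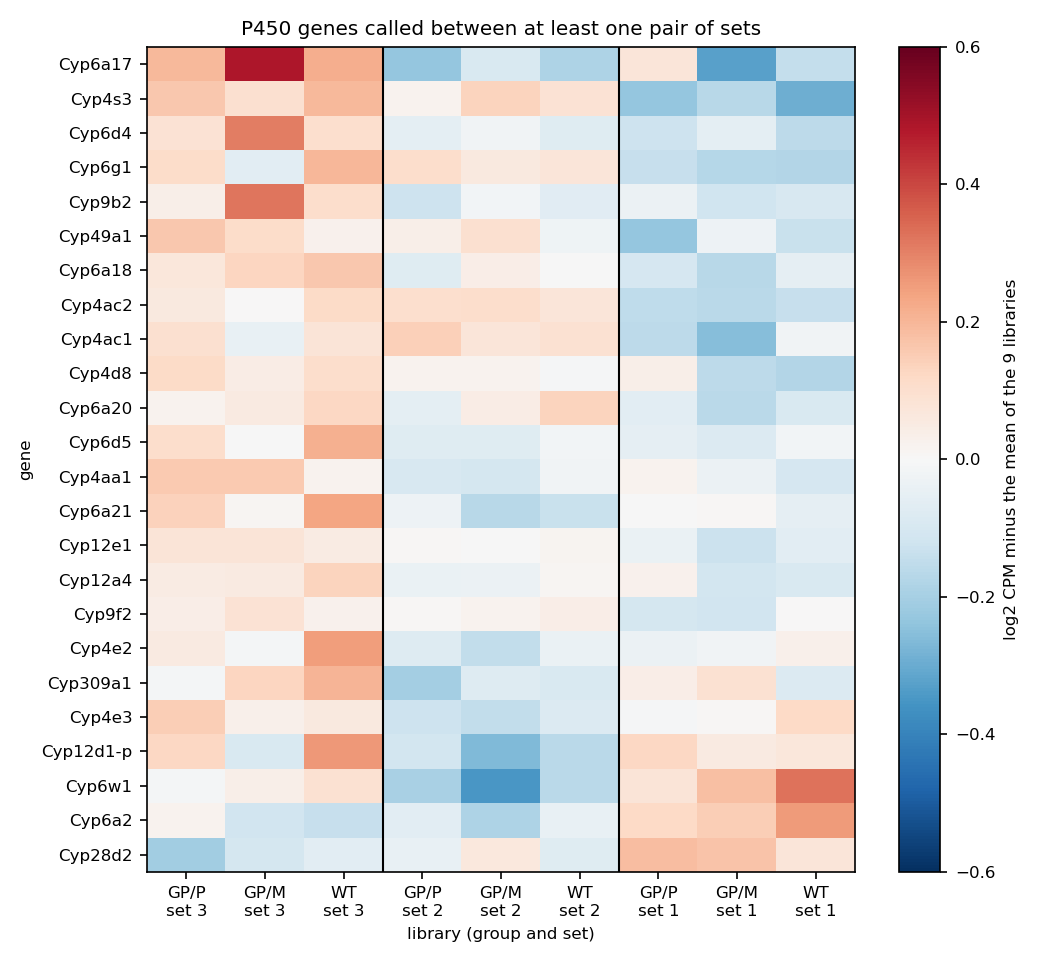
Log2 CPM of the 24 P450 genes called in at least 1 pair of sets, as the difference from the gene's mean over 9 libraries (colour scale, red above and blue below), in columns for set 3, set 2 and set 1 with GP/P, GP/M and WT within each. Most rows are red in set 3, while Cyp6w1, Cyp6a2 and Cyp28d2 are red in set 1.

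Set 2 differed from set 1 in 6 members (7.41%; 2.47% of all genes), 4 higher in set 2 (1.49% of all genes) and 2 lower (0.984%). DESeq2 also called 6 members (1.61% of all genes). Cyp6w1 had the smallest p of all members in any comparison. It was at 116, 104 and 119 CPM in set 2 and 141, 150.5 and 167 CPM in set 1, so that the highest of set 2 was below the lowest of set 1. This is 0.743-fold (95% interval 0.696 to 0.793; edgeR adjusted p = 2.13e-05). Cyp6a2 was at 147, 136 and 149 CPM in set 2, below all set 1 values, and 0.827-fold (edgeR adjusted p = 0.00284).

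The 4 members that were higher in set 2 also higher in set 3 than in set 1, a pair of comparisons that share the set 1 libraries. Cyp4s3 was at 38.9, 42.1 and 40.6 CPM in set 2, 1.24-fold of set 1 (edgeR adjusted p = 0.00279). Cyp6g1 was at 916, 887 and 894 CPM in set 2, 1.18-fold (edgeR adjusted p = 0.00620). Cyp4ac1 and Cyp4ac2 are tandem neighbours of the CYP4 clan. Cyp4ac1 was at 89.8, 85.6 and 86.6 CPM in set 2 and 72.9, 68.2 and 80.2 CPM in set 1, 1.19-fold (edgeR adjusted p = 0.00372). Cyp4ac2 was at 49.7, 49.9 and 48.8 CPM in set 2 and 41.7, 41.4 and 42.1 CPM in set 1, 1.19-fold (edgeR adjusted p = 0.00621). In set 2 and in set 1 the 3 libraries of Cyp4ac2 were nearly the same, whatever the group, while those of set 3 lay further apart. The third neighbour, Cyp4ac3, was at 1.03-fold and not called (edgeR adjusted p = 0.827). Cyp6w1, Cyp4s3 and Cyp6a2 remained called whichever library was left out. The other 3 were lost without the GP/P or the GP/M library of set 2, which left 3 calls, and Cyp6g1 also without the GP/P library of set 1.

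Set 3 differed from set 2 in 11 members (13.6%; 5.92% of all genes), all 11 higher in set 3 (4.31% of all genes; 1.61% of all genes were lower). DESeq2 called 8 members (3.43% of all genes). It did not call Cyp6d4 or Cyp4e3 and gave no adjusted p for Cyp6a17 and Cyp12d1-p. The median member was at 1.04-fold, against 0.995-fold for all genes. Cyp6a17, with the set 3 values above, was at 11.97, 13.2 and 12.3 CPM in set 2, and set 3 was at 1.39-fold (edgeR adjusted p = 0.0253). Cyp6w1 was at 132, 136 and 142 CPM in set 3, above every set 2 library, and 1.21-fold (edgeR adjusted p = 0.00407). It was thus lowest in set 2 in all 3 groups.

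Cyp12d1-p, which is inducible by DDT and caffeine, was at 18.6, 16.0 and 20.4 CPM in set 3 and 15.8, 14.2 and 15.2 CPM in set 2, 1.21-fold (edgeR adjusted p = 0.0253). The lowest library of set 3 and the highest of set 2 were close. Cyp12d1-p has a near-identical tandem copy, Cyp12d1-d, which is not analysed here, so its count may be split or pooled. Cyp6a21 was at 39.8, 36.6 and 42.8 CPM in set 3 and 35.4, 32.3 and 33.0 CPM in set 2, 1.18-fold (edgeR adjusted p = 0.0201). Cyp309a1 was at 57.2, 63.0 and 66.3 CPM in set 3 and 50.1, 54.7 and 54.0 CPM in set 2, 1.17-fold (edgeR adjusted p = 0.0179). In both the lowest library of set 3 was above the highest of set 2. Cyp9b2 was at 267, 287 and 277 CPM in set 2, 1.17-fold (edgeR adjusted p = 0.0403). Cyp6d4, Cyp4e3, Cyp4aa1, Cyp4e2 and Cyp6d5 rose 1.12-fold to 1.16-fold.

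These calls rested on few libraries. Without the GP/M library of set 2 there were 0 calls, without the GP/P library of set 2 there were 2, and without the WT library of set 2 there were 5. Without the GP/M library of set 3 there were 6, and without the WT library of set 3 there were 7. Cyp6w1 was lost only when the GP/M library of set 2 was left out. Cyp6a17 was lost without any library of set 2 and without the GP/M or WT library of set 3, and Cyp12d1-p, Cyp6a21 and Cyp6d5 without any library of set 2 or the WT library of set 3. Cyp309a1 was lost without the GP/P or GP/M library of set 2 or the GP/M or WT library of set 3. Cyp9b2 fell to a log2 fold change of 0.15 without the GP/M library of set 3, against 0.23 with it.

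**Figure D5:**
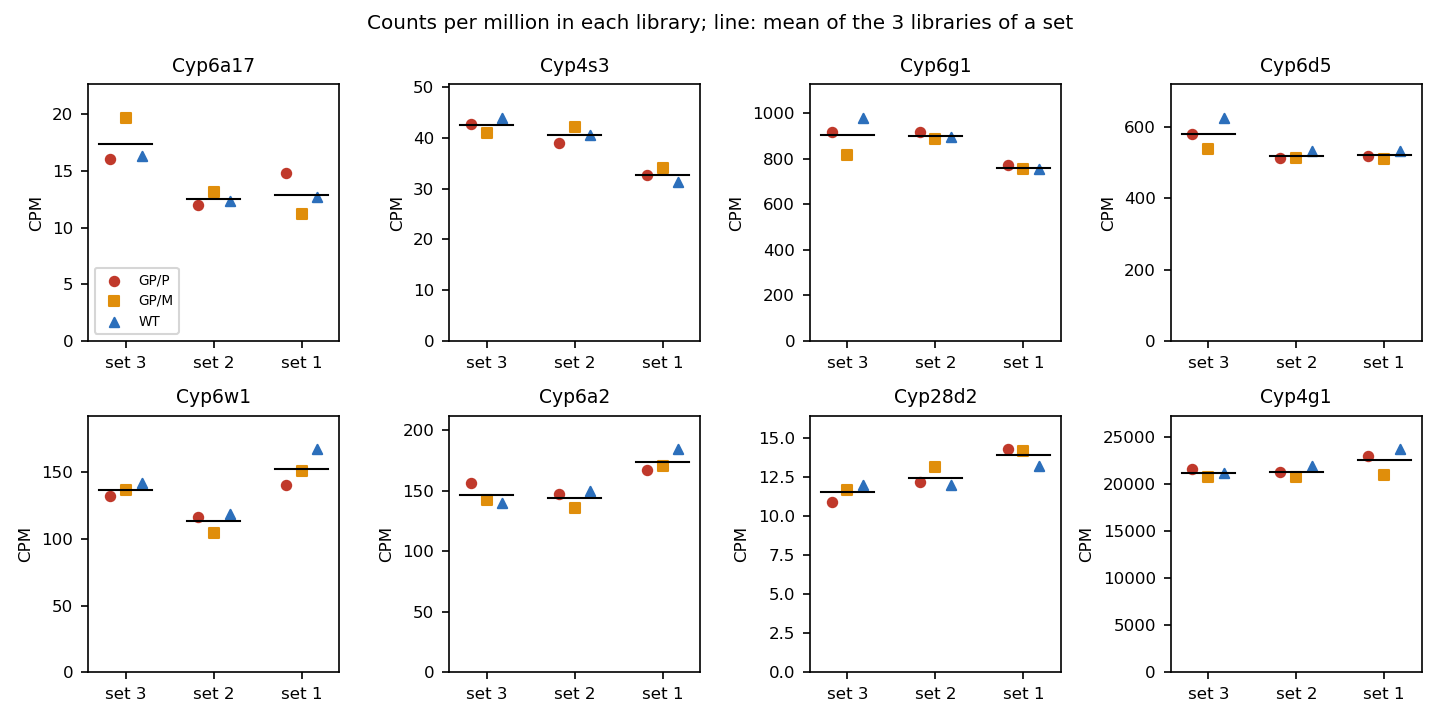
CPM in each library for 8 P450 genes, in panels from 0, with set 3, set 2 and set 1 from left to right and GP/P, GP/M and WT as circles, squares and triangles; the line is the mean of a set. The set means of Cyp6a17, Cyp4s3 and Cyp6d5 are highest in set 3 and those of Cyp6a2 and Cyp28d2 in set 1. Cyp6g1 is lowest in set 1, with nearly equal means in sets 3 and 2. Cyp6w1 is lowest in set 2, and the set means of Cyp4g1 lie close together on this scale.

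By role, the foreign-compound genes were called in both directions. In set 3 against set 1, 5 of the 8 were called: Cyp6g1, Cyp6d5 and Cyp12a4 higher, and Cyp6a2 and Cyp6w1 lower, beside 18.7% of all genes called (11.7% higher and 6.92% lower). Cyp6d5 was at 581, 538 and 626 CPM in set 3, 513, 512 and 534 CPM in set 2 and 520.2, 509.8 and 533 CPM in set 1. It was higher in set 3 than in either other set (edgeR adjusted p = 0.0146 against set 2 and 0.00489 against set 1). Over the omissions its log2 fold change stayed at 0.12 to 0.20 against set 1 and 0.13 to 0.21 against set 2. Both calls were lost without the WT library of set 3, and that against set 2 also when any library of set 2 was left out. Cyp6a8 had 13 to 31 counts per library and was not called. Of the behaviour genes, Cyp6a17 and Cyp6a20 were called higher in set 3 than in set 1, and Cyp4d21 was not called in any pair of sets. Cyp6a20 was at 169, 173 and 182 CPM in set 3 and 159, 149 and 157 CPM in set 1, 1.13-fold (edgeR adjusted p = 0.00589).

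Cyp4g1 was not called between sets. It was at 21648, 20812 and 21237 CPM in set 3, 21323, 20791 and 21917 CPM in set 2 and 23014, 20956 and 23728 CPM in set 1, where the GP/P and WT libraries were the highest of the 9. Set 3 was at 0.942-fold of set 1 (95% interval 0.897 to 0.989; edgeR adjusted p = 0.0816), and the log2 fold change of -0.09 was -0.06 without the WT library of set 3. The other 80 members together summed to 6486 ± 112 CPM in set 3, 6088 ± 73.6 CPM in set 2 and 6039 ± 91.6 CPM in set 1 (SD, n = 3 each), with every set 3 library above every library of sets 2 and 1. Cyp18a1 was at 10.8 ± 0.740 CPM in set 3, 10.4 ± 0.452 CPM in set 2 and 12.4 ± 1.60 CPM in set 1 (SD, n = 3 each) and was not called.

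By clan, the 8 mitochondrial members were all above in set 3 against set 1 (median 1.08-fold; 3 called, all higher, beside 11.7% of all genes called higher) and in set 3 against set 2 (median 1.05-fold; 1 called higher, beside 4.31% of all genes). The 3 mitochondrial calls against set 1 were Cyp12a4, Cyp12e1 and Cyp49a1, each lost in some omissions. DESeq2 did not call Cyp12e1 or Cyp49a1 there. In the CYP3 clan, 28 of 40 members were above in set 3 against set 1, with 8 called higher and 3 lower. In the CYP4 clan, 17 of 29 were above, with 5 called, all higher. Over all genes, 11.7% were called higher and 6.92% lower in that comparison. No CYP2 clan member and no pseudogene was called in any comparison.

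Neighbouring members were compared through the gene order of the reference annotation, which is of a later build than the authors' alignment. There were 15 neighbourhoods, with at most 1 other protein-coding gene between members, and they held 42 members. The largest had 8 members: Cyp317a1, Cyp6a8, Cyp6a9, Cyp6a17, Cyp6a19, Cyp6a20, Cyp6a22 and Cyp6a23. In set 3 against set 2 all 8 were above, with a median log2 fold change of 0.14, though of these only Cyp6a17 was called. The median of all genes in that comparison was slightly below set 2. Of the 8, Cyp6a19 (5 to 16 counts per library) and Cyp6a8 (13 to 31) had few counts. Cyp6a21, called higher in set 3 against set 2, has no gene model in this annotation and could not be placed in any neighbourhood. In set 3 against set 1, 7 of 8 were above and Cyp6a17 and Cyp6a20 were called. Cyp6a23 was at 279, 355 and 297 CPM in set 3 and 219, 239 and 243 CPM in set 2, 1.33-fold without a call (edgeR adjusted p = 0.107), and its highest library was that of GP/M in set 3, as for Cyp6a17 and Cyp9b2. Cyp6g1 has Cyp6g2 and Cyp6t3 beside it, and neither was called in any pair of sets. Cyp6g2 was at 7.30 ± 0.692 CPM in set 3 and 7.63 ± 0.367 CPM in set 1 (SD, n = 3 each). Cyp6t3 was at 3.65 ± 0.437 CPM in set 3, 4.11 ± 0.154 CPM in set 2 and 3.25 ± 0.106 CPM in set 1 (SD, n = 3 each). Its log2 fold change was 0.16 in set 3 against set 1 (edgeR adjusted p = 0.414) and 0.34 in set 2 against set 1 (edgeR adjusted p = 0.204), where Cyp6g1 was at 0.24. The set share of Cyp6t3 was 70.0%. The exons of Cyp6g1 and Cyp6g2 overlap in the annotation, as do those of Cyp6a9 and Cyp6a19, so these pairs may share reads. So may Cyp6t3 and CG8858, whose exons overlap too. CG8858 was called higher than in set 1 both in set 2 (log2 fold change 0.20, edgeR adjusted p = 0.0343) and in set 3 (0.29, edgeR adjusted p = 5.91e-04).

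Some genes that serve the P450 system were called between sets. In set 3 against set 1 these were 2 of 6 electron supply, 1 of 7 haem synthesis and 1 of 4 regulator genes. Of all genes, 18.7% were called in that comparison. Of the 6 electron supply genes, Cpr and Cyt-b5 were lower in set 3 than in set 1, and none was higher. Cpr was at 1508 ± 11.1 CPM in set 3, 1464 ± 48.2 CPM in set 2 and 1612 ± 44.4 CPM in set 1 (SD, n = 3 each). Its log2 fold change was -0.10 for set 3 against set 1 and -0.14 for set 2 against set 1 (edgeR adjusted p = 0.0430 against set 1 for set 3 and 0.0228 for set 2). Of the 9 fits that leave out a library, the one without the GP/P library of set 1 kept the call for set 3. DESeq2 did not call it there (log2 fold change -0.09, adjusted p = 0.0553), nor did edgeR without a group term. The call for set 2 was lost without the GP/P, GP/M or WT library of set 2 or the GP/M or WT library of set 1. Cyt-b5 was at 551 ± 14.2 CPM in set 3 and 602 ± 39.1 CPM in set 1 (edgeR adjusted p = 0.0136), and was lost without the GP/M or WT library of set 1 or 3.

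Of the 7 haem synthesis genes, Alas, the enzyme of the first step, was called in set 3 against set 1. It was at 276 ± 11.98 CPM in set 3, 291 ± 14.6 CPM in set 2 and 313.4 ± 14.1 CPM in set 1 (SD, n = 3 each), a log2 fold change of -0.18 (edgeR adjusted p = 0.00320) that remained called whichever library was left out. Of the 4 regulators, cnc was higher in set 3. The gene cnc encodes the fly counterpart of Nrf2, which switches on detoxification genes. It was at 325 ± 5.24 CPM in set 3, 295 ± 7.98 CPM in set 2 and 282 ± 11.2 CPM in set 1 (SD, n = 3 each; edgeR adjusted p = 7.53e-04 against set 1 and 0.0259 against set 2). The call against set 1 held whichever library was left out, and that against set 2 was lost without the GP/P or GP/M library of set 2 or the GP/M or WT library of set 3. Hr96, a nuclear receptor that responds to foreign compounds, was at a log2 fold change of 0.14 in set 3 against set 1 (edgeR adjusted p = 0.0581). Neither sad nor shd was called in any pair of sets.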

How the data were processed

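The 9 libraries were made from polyadenylated whole-fly RNA. The authors deposited raw read counts per gene, per the file headers, in 3 pairwise tables with identical counts for shared libraries (0 values differed). The submitters' processing notes name Novoalign, DESeq and the build dm3; the sources used here do not say how strand or reads with several matches were handled. The authors' deposited log2 fold changes, p-values and adjusted p-values were used only where named, and 18 columns of normalised values were not used.

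Counts of 13140 genes were fitted with edgeR 4.0.16 in R 4.3.3 (TMM, filterByExpr, robust quasi-likelihood test, Benjamini-Hochberg adjustment over 12913 genes, called under 0.05). The group comparisons used ~group over 9 libraries, and the set comparisons ~group + set. Intervals use a standard error taken from the fold change and its F statistic, levels are TMM-scaled CPM, and a prior count of 2 entered log2 values. Exon lengths and gene order came from a later build, so no coordinates are given. Of the members, 80 have an exon length, and the exons of 16 overlap those of another gene in the deposited data. Scripts were tested on simulated data.

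Same-numbered libraries come from the same experiment per the labels; deviations from the group means correlated at 0.066 to 0.293 within numbers (8 of 9 pairs over 0.1) and at -0.267 to 0.027 otherwise. Replicates are described in the labels as biologically and experimentally independent. Alternatives were the replicate block, DESeq2 1.42.0, RLE size factors, other filters, only the groups compared, no group term, an adjusted p under 0.01 and leaving out each library. The members and the lists were chosen with earlier results of these data known. Named genes are, for each group comparison, the 4 members with the smallest p, for each pair of sets the called members with the 6 largest changes in each direction, the 8 highest levels and the role lists; other members are named only as counted. List entries such as phm, dib, spo, spok and Cyp12d1-d are not analysed here.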

Additional observations from a re-analysis of the deposited data

How the results depend on the processing

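In the 3 group comparisons the count of called members was 0 under every alternative run: the replicate block, DESeq2, RLE size factors, no filter, a mean of at least 50 counts, only the groups compared and each library left out (0 to 0 over the omissions). For set 2 against set 1 the count was 6 in all alternatives but the omissions (3 to 9; 3 without the GP/P or the GP/M library of set 2). For set 3 against set 1 it was 19, 13 by DESeq2, 9 at an adjusted p under 0.01 and 12 to 19 over the omissions. For set 3 against set 2 it was 11, 8 by DESeq2, 9 without a group term, 1 at an adjusted p under 0.01 and 0 to 12 over the omissions. For any difference between sets it was 22, 15 by DESeq2, 10 at an adjusted p under 0.01 and 16 to 23 over the omissions. The drop at the stricter threshold follows from its construction. Each omission leaves fewer libraries, but the count also differed with the library left out, and some counts rose. For set 2 against set 1 it was 9 without the WT library of set 1 or that of set 3. By DESeq2 and at the stricter threshold, counts over all genes fell too. In set 3 against set 1, 2409 genes were called, 1383 by DESeq2 and 1136 at an adjusted p under 0.01. In set 3 against set 2 these counts were 764, 451 by DESeq2 and 144 at the stricter threshold, and in set 2 against set 1 they were 319, 212 by DESeq2 and 123 at the stricter threshold.

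Directions were followed for the called members of each pair of sets, the 4 members with the smallest p of each group comparison, and Cyp4g1. Called electron supply, haem synthesis and regulator genes of each pair of sets were followed too. Among these, the direction turned in 3 fits, all for Cyp4g1. Its log2 fold change in GP/P against WT was 0.0301 without the WT library of set 1 (-0.0570 to 0.0301 over the omissions). In set 3 against set 2 it was 0.00902 without the GP/M library of set 2 and 0.0264 without the WT library of set 3 (-0.0240 to 0.0264 over the omissions). Cyp4g1 was called once, in set 3 against set 1 without the GP/M library of set 1. Levels of the 8 highest members moved by less than the spread between libraries with RLE size factors. Members with few counts, such as Cyp6a19, Cyp6a8 and Cyp303a1, are limited by depth. Of the 36 calls between sets, 9 held whichever library was left out. The replicate block changed no call in a group comparison.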
